A study of Homo sapiens with 18 samples.

Results

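Antisense-named genes are the 342 genes described here. Human gene nomenclature gives an RNA gene the suffix -AS1, -AS2 or -AS3 when it lies on the strand opposite a named protein-coding gene. The 342 were chosen by their level in these libraries: a symbol with such a suffix and a mean of at least 1 FPKM over all 18 libraries, with EPB41L4A-AS1 left out. FPKM is the number of fragments scaled to transcript length and to all mapped fragments of the library, so levels of different genes can be set side by side. Of 26372 symbols in the table, 971 carried one of the 3 suffixes, and 628 of these lay below the threshold, 104 of them at 0 in every library. The members comprised 312 genes ending in -AS1, 27 in -AS2 and 3 in -AS3. Just inside the threshold were PRR7-AS1, ZNF213-AS1 and LIPE-AS1, with mean FPKM of 1.01, 1.02 and 1.02. Just outside it were SHANK2-AS1, ADAMTSL4-AS1 and ITPK1-AS1, with 0.997, 0.987 and 0.985. The mean over both days chose the members, so a gene silent on one day could enter through the other: 39 members had a mean under 1 FPKM on day 0, 14 had one on day 18, and 289 reached 1 on both days.

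The libraries came from the human neuroblastoma line SH-SY5Y, an established line that extends neurites under retinoic acid. All cells had received a lentivirus made with the FUGW plasmid that carried ZNHIT3, a zinc-finger protein linked by the series to box C/D and H/ACA small nucleolar RNAs, as the wild-type sequence (WT), with the C14R substitution, or with a deletion. Each line was sampled on day 0 and on day 18 of culture with BDNF, KCl, db-cAMP and all-trans retinoic acid, giving 6 groups of 3 libraries. The deletion was labelled 251-254, 251-255 and 251-256 in replicates 1, 2 and 3 and "Depleted" in the titles, and no library without a ZNHIT3 construct was compared here. The labels do not say whether replicates were separate cultures, so p-values measure the spread between these libraries, which may be technical.

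An antisense transcript can share a promoter region with its sense gene and run away from it, or can run through the sense gene's body and exons. Some antisense RNAs are known to act on the neighbouring gene, for example by recruiting chromatin proteins or by transcription across its promoter, while others work elsewhere in the cell or have no described function. DLX6-AS1, which acts in the development of inhibitory neurons, and OIP5-AS1, which pairs with a microRNA in brain, are among the studied ones. The NEBNext Ultra kit named in the labels does not mark strand unless its directional version is used, and neither the version nor the strand setting of the counting is given in the sources used here. Reads from bases that an antisense gene shares with its sense gene therefore cannot be assigned to one of them. Every value for such a gene is uncertain to that extent. Depletion of ribosomal RNA leaves unspliced RNA in a library, so this also covers members that lie in an intron of the sense gene.

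The arrangement of 331 members and their sense genes could be read from GENCODE release 29 on GRCh38 (hg38). A total of 128 started within 1000 bases of the sense gene's start on the opposite strand (head to head), 142 started farther away and shared exonic bases with it, and 61 overlapped it without shared exonic bases. Of 334 members found in this annotation, 98 shared no exonic base with any other gene, 26 shared over 50% of theirs, and the median was 7.64%. The annotation called 245 members antisense, 42 lincRNA, 33 processed transcript and 4 bidirectional promoter RNA.

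RefSeq start sites on GRCh38.p14 were matched for 215 members. In 57 of them the window from 250 bases before to 50 bases after a start also held, on the other strand, part of the same window of the sense gene, with 26 to 294 bases in common. Where a gene had several start sites, the pair with most bases in common was used. The windows of 5 such members are printed because one stretch of DNA lies at the start of both transcripts while the day changes of the pair, given further on, differ. They are written 5′ to 3′ along the antisense strand, and capitals mark the bases that also lie in the sense gene's window.
URB1-AS1 (chr21:32392883-32393182, plus strand) and TPT1-AS1 (chr13:45341095-45341394, plus strand) have 220 and 261 such bases.
URB1-AS1: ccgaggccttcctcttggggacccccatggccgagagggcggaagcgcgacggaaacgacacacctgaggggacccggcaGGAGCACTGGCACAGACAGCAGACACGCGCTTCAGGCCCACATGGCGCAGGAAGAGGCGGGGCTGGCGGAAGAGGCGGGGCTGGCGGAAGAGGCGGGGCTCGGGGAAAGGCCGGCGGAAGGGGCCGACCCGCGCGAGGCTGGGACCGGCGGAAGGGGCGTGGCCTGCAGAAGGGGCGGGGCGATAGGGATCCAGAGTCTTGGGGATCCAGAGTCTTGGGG
TPT1-AS1: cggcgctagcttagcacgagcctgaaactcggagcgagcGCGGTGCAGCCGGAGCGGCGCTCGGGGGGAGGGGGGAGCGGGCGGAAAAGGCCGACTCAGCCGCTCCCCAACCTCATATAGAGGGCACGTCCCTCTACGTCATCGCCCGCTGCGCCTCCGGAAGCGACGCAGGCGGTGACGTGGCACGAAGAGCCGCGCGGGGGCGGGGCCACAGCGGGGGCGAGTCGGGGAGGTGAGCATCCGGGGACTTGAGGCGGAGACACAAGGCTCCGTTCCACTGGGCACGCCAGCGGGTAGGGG
RTCA-AS1 (chr1:100266125-100266424, minus strand) has 141.
RTCA-AS1: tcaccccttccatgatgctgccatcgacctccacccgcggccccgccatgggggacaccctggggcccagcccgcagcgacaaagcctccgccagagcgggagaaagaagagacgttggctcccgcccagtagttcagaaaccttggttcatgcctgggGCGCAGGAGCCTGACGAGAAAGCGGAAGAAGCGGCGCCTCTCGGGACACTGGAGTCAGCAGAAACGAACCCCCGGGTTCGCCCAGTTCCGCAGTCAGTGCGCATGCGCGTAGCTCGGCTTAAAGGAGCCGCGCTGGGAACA
SAP30L-AS1 (chr5:154445773-154446072, minus strand) has 274 and ID2-AS1 (chr2:8681812-8682111, minus strand) has 294.
SAP30L-AS1: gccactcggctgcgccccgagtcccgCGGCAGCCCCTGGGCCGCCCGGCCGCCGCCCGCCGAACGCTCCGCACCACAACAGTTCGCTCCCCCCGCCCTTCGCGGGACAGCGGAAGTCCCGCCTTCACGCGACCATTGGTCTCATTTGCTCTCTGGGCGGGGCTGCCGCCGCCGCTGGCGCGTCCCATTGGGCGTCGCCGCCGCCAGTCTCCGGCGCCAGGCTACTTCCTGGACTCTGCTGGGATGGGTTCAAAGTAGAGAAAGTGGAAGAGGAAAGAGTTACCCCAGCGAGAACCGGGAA
ID2-AS1: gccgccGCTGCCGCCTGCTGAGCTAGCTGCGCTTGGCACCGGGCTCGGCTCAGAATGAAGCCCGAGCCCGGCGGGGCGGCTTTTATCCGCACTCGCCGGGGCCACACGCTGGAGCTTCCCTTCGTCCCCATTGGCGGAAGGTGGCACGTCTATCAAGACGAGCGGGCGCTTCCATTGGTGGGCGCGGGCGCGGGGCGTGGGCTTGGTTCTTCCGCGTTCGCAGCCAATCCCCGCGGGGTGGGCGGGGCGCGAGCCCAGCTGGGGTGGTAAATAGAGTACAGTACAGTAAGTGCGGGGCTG
The 5 windows held 28, 38, 26, 35 and 34 CpG dinucleotides in the order printed, and each held the GC box GGGCGG on one strand or the other. Over the first listed window of each gene, the median number of CpG was 22 for the 215 members and 14 for all 27305 genes. The GC box was in 50.2% of the members' windows and 44.6% of all, the E-box CACGTG in 8.37% and 7.43%, and the TATA box TATAAA in 6.51% and 12.0%, both strands searched. The DR5 retinoic acid receptor element, written as a pair of perfect half-sites, was in 0 of the 215 windows and in 1 of all windows, so this spelling could not be compared.

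Steps between low FPKM values put the relative depth of the libraries at 59.0% to 84.7% of the deepest on day 0 and 82.4% to 100% on day 18. Absolute depth is unknown. Among defining markers, 11 of 12 neuroblastic and noradrenergic genes, all but TH, had a mean of at least 1 FPKM. The summed level was 1378 to 1431 on day 0 and 2381 to 2592 on day 18. Abundant genes weigh most in such a sum, and its genes did not all rise. DBH went from 56.2 to 69.2 FPKM to 288 to 476, GATA3 fell from 94.3 to 103 to 68.2 to 94.0, and HAND2 stayed at 263 to 307. Of 10 mesenchymal or substrate-adherent markers 8 had a mean of at least 1 FPKM, and their sum went from 897 to 1077 on day 0 to 143 to 152 on day 18. Glial markers (1 of 5, S100B) and immune markers (1 of 4, CD68) summed to at most 7.80 in any library, and 0 of them were at 0 in every library. In bulk RNA, fewer cells of one kind and less RNA per cell cannot be told apart, and the part of this shift between cell states in the changes below was not tested.

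Levels of the members were mostly low. Their median mean level was 2.74 FPKM, against 10.7 for all 13785 genes tested and 15.1 for the tested sense genes, and 236 of the 342 lay under 5 FPKM. The highest was LRRC75A-AS1, a host gene of box C/D small nucleolar RNAs, at 347 FPKM. HAND2-AS1, HIF1A-AS2, FGD5-AS1 and PITPNA-AS1 followed at 59.5, 58.4, 57.6 and 57.4, which lie too close together to be ordered. LRRC75A-AS1 spanned 411 to 447 FPKM (median 435) over the 9 day 0 libraries and 241 to 288 (median 258) over the 9 of day 18, with no overlap, a fall of 0.71 ± 0.05 (log2, SE, n = 3 against 3) in the WT line (limma, adjusted p = 7.88e-10). LRRC75A itself stayed between 4.19 and 6.17 FPKM in all libraries and did not pass the test in any line. FGD5-AS1 went from 46.4 to 50.0 FPKM on day 0 to 63.6 to 71.2 on day 18, and PITPNA-AS1 from 38.6 to 47.6 to 65.2 to 78.8, again with no overlap. HAND2-AS1, which starts next to the noradrenergic transcription factor gene HAND2, overlapped fully between the days: 52.3 to 71.1 FPKM on day 0 and 51.4 to 68.2 on day 18, with HAND2 at 263 to 307 in every library, and neither passed the test.

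Day 18 of differentiation differed from day 0 for most antisense-named genes, with more rises than falls. In the WT line 208 members passed the test (limma on log2(FPKM + 1), adjusted p under 0.05), 137 higher and 71 lower on day 18. Where small RNA genes were left out and each library was brought back to its former total, which shifts the median of all genes by -0.44 on the log2 scale, 22 members were called higher and 54 lower. With a common total in place of the former one, a shift of 0.18, the split was 169 to 53. Relative to the median of all genes the members' median lay above in every scaling tried, by 0.08 to 0.24, with no matching for level. As deposited, the 208 are 60.8% of the members, beside 72.2% of all genes tested. Rises made up 40.1% of members beside a background of 38.2%, and falls 20.8% beside 34.0%. In the C14R line 201 passed (131 higher, 70 lower; background 72.9%) and in the deletion line 199 (140 higher, 59 lower; background 73.0%). The same direction was called in all 3 lines for 114 higher members (33.3% of members, background 33.3%) and 45 lower members (13.2%, background 29.7%). Of 249 members called in any line, 0 had opposite calls in another. The 9 libraries of day 0 and the 9 of day 18 did not overlap for 130 members (38.0%, background 56.8%), and 42 of the WT calls reached a log2 change of 1 (29 higher, 13 lower; 12.3%, background 14.1%).

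**Figure D1:**
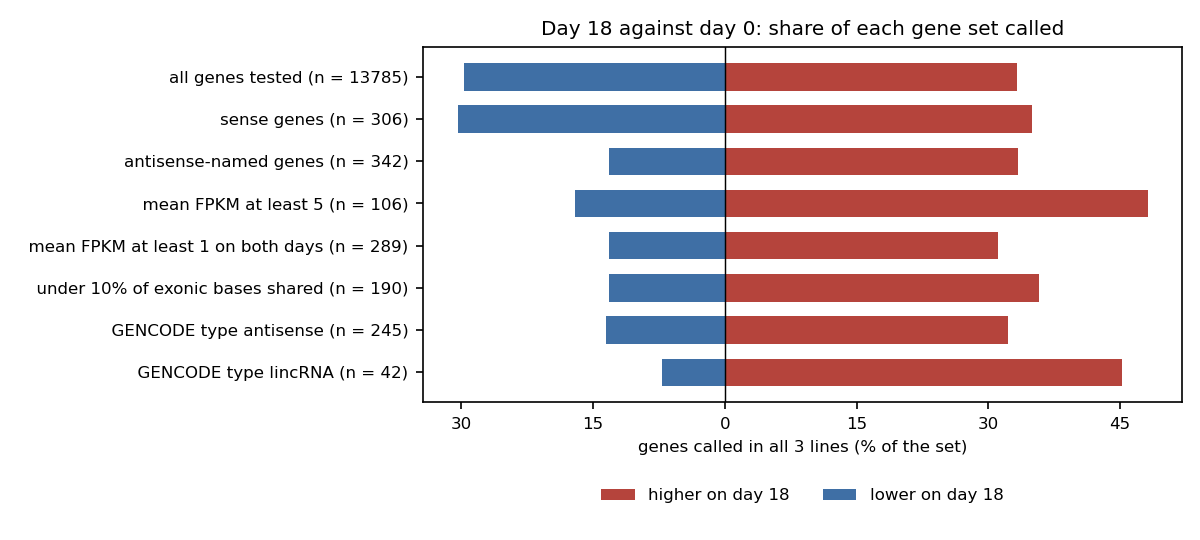
Bars show the percentage of each gene set called higher (right) or lower (left) on day 18 in all 3 lines by limma, with the number of genes in each set. The antisense-named genes reach 33.3% higher, as all genes do, but 13.2% lower against 29.7% for all genes.

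The shares were also counted by level. Of all genes tested under 5 FPKM, 30.9% were called higher and 21.5% lower in all 3 lines, and of the 236 members under 5 FPKM 26.7% and 11.4%. At 5 FPKM or more the shares were 34.2% and 32.8% for all genes and 48.1% and 17.0% for the 106 members. Of the 289 members with at least 1 FPKM on both days, 90 (31.1%) were higher and 38 (13.1%) lower in all 3 lines. Of the 190 members that share under 10% of their exonic bases with another gene, 68 (35.8%) were higher and 25 (13.2%) lower. Both of these subsets were chosen after the data had been seen. The 306 sense genes had 107 higher (35.0%) and 93 lower (30.4%). The members annotated as lincRNA were 19 higher (45.2%) and 3 lower (7.14%) of 42. Those annotated as antisense were 79 higher (32.2%) and 33 lower (13.5%) of 245. Over all genes tested the shares were 33.3% and 29.7%. The median day change of the members in WT was 0.16 on the log2 scale, beside 0.03 for all genes tested. Under 5 FPKM these medians were 0.13 for members and 0.10 for all genes, and at 5 FPKM or more 0.29 and -0.0003.

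The 8 largest rises among members called in all 3 lines were led by CADM3-AS1. This gene, antisense to the neuronal adhesion molecule CADM3, had 0.910 to 1.39 FPKM (median 1.20) on day 0 and 12.0 to 14.4 (median 13.4) on day 18, 11.2 times as much by the means of 9 libraries. No library of one day came near the other day. Its change in WT was 2.67 ± 0.07 (log2, SE; limma, adjusted p = 2.62e-15), and 2.78 and 2.66 in C14R and deletion. CHRM3-AS2, antisense to the muscarinic acetylcholine receptor CHRM3, went from 0.394 to 1.43 FPKM (median 0.638) to 2.65 to 5.28 (median 3.70). ADD3-AS1, opposite the membrane-skeleton protein adducin 3, went from 0.0602 to 0.722 to 1.94 to 3.24. Both rose in all 3 lines without overlap between the days, by 1.56 and 1.60 in WT.

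Of the other large rises, 2 lay at sense genes that moved little. RAP2C-AS1 (beside a small GTPase gene) rose from 1.95 to 3.01 FPKM on day 0 to 8.67 to 10.6 on day 18, a WT change of 1.53 ± 0.11 (limma, adjusted p = 1.43e-09), while RAP2C changed by 0.23. RTCA-AS1, which shares 141 bases of its start window with the RNA cyclase gene RTCA, rose by 1.48 ± 0.23 in WT (limma, adjusted p = 1.69e-05). Its libraries ran from 1.77 to 4.09 FPKM (median 3.14) on day 0 and from 6.38 to 12.8 (median 9.56) on day 18. RTCA stayed at 15.6 to 18.8 and 15.2 to 17.2 FPKM and did not pass the test. KRTAP5-AS1, CFAP58-AS1 and SCOC-AS1 rose by 1.61, 1.38 and 1.37 in WT, from day 0 medians of 0.796, 0.695 and 0.675 FPKM to 5.50, 3.25 and 2.92. SCOC itself rose by 1.15 in WT, and KRTAP5-AS1 and CFAP58-AS1 had no tested sense gene. KRTAP5-AS1, CFAP58-AS1, SCOC-AS1, CHRM3-AS2 and ADD3-AS1 had day 0 medians under 1 FPKM. The mean that chose them as members therefore came mostly from day 18, the day on which they were high.

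**Figure D2:**
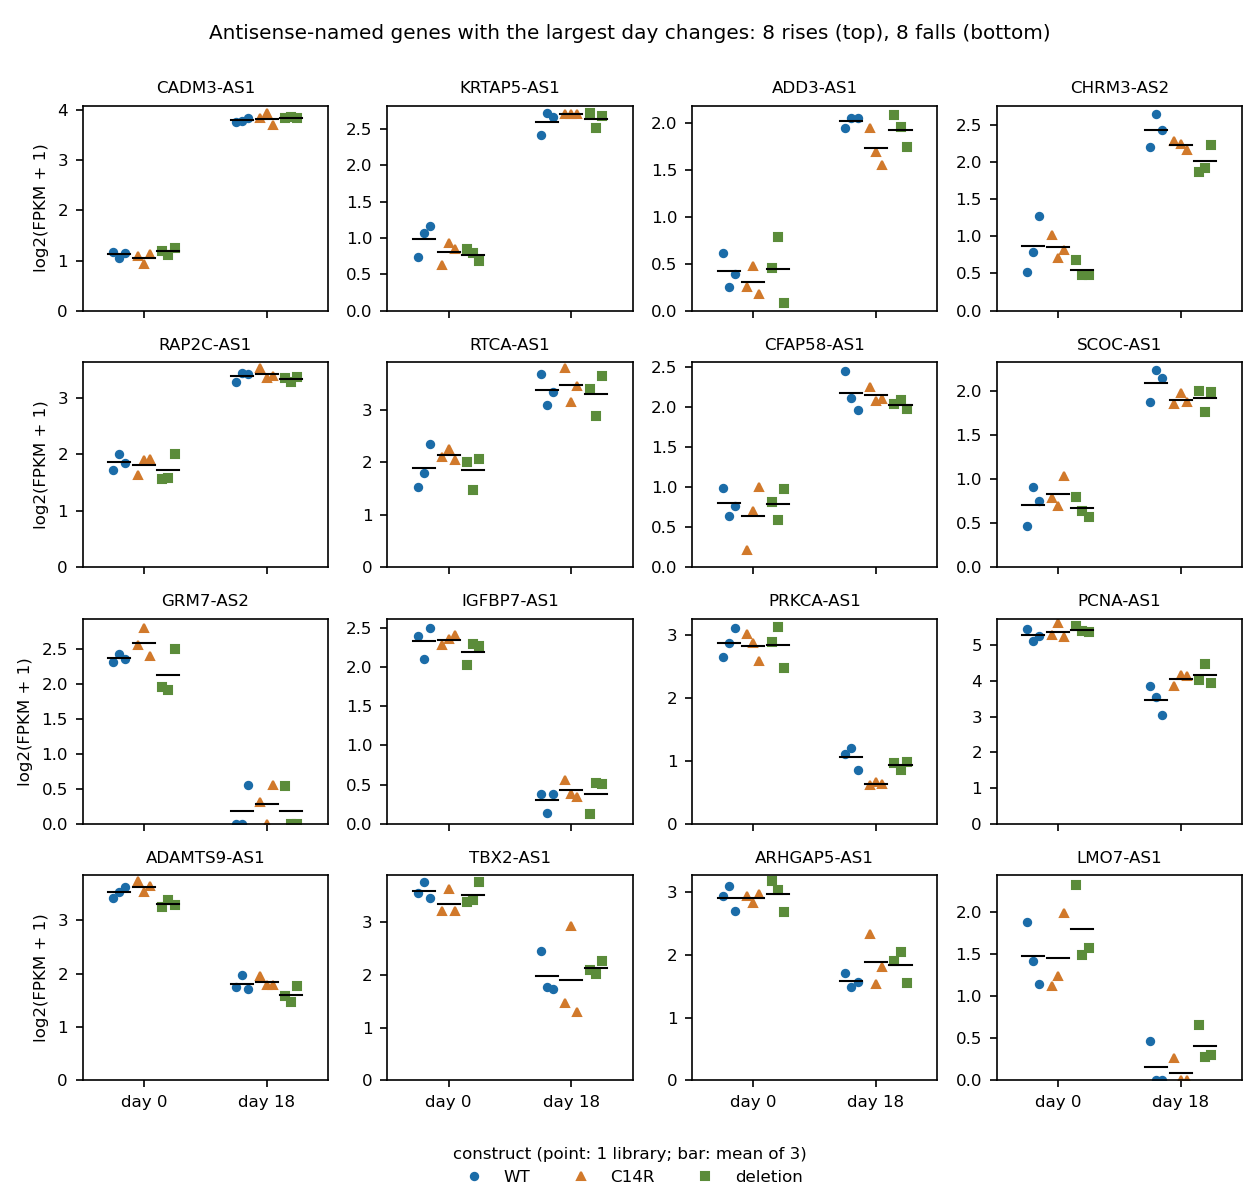
Each panel plots log2(FPKM + 1) of one antisense-named gene in the 18 libraries by day, coloured by construct, with the mean of each group of 3 as a bar. In all 16 genes the 9 libraries of day 0 and the 9 of day 18 do not overlap.

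The 8 largest falls were led by GRM7-AS2. This gene, inside the metabotropic glutamate receptor gene GRM7, had 2.78 to 5.94 FPKM (median 4.27) on day 0, and on day 18 was listed at 0 in 5 of 9 libraries with 0.467 as its highest value. It fell by 2.19 ± 0.20 in WT (limma, adjusted p = 2.08e-08). IGFBP7-AS1, head to head with the secreted growth factor binding protein IGFBP7, went from 3.07 to 4.64 FPKM to 0.0871 to 0.466, 13.1 times less by the means. PRKCA-AS1 (protein kinase C alpha) went from 4.58 to 7.75 to 0.529 to 1.31, 7.34 times less. PCNA-AS1, antisense to the sliding clamp of DNA replication, went from 33.8 to 48.0 FPKM (median 40.0) to 7.27 to 21.4 (median 14.4). TBX2-AS1 (8.22 to 12.6 against 1.45 to 6.60), ADAMTS9-AS1 (8.50 to 12.3 against 1.76 to 2.94), ARHGAP5-AS1 (5.41 to 8.09 against 1.80 to 4.04) and LMO7-AS1 (1.18 to 3.98 against 0 to 0.576) completed the 8 largest. Each of these fell in all 3 lines, and its 2 days did not overlap. GRM7-AS2, IGFBP7-AS1 and LMO7-AS1 stayed under 1 FPKM in every day 18 library, so day 0 values carried them over the threshold for members.

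Of 318 members whose sense gene was also tested, 139 had both genes called by day in WT. A total of 100 of these pairs moved in one direction (58 higher, 42 lower) and 39 in opposite directions, in 27 of them with the antisense gene higher and the sense gene lower. In another 52 pairs only the antisense gene was called, in 96 only the sense gene, and in 31 neither. Called in all 3 lines, 71 pairs moved together (42 higher, 29 lower) and 23 apart (19 with the antisense gene higher, 4 with it lower). Tested directly in WT, the antisense change differed from the sense change in 183 pairs, 118 with the antisense gene above and 65 with it below. In 140 of these the difference was called with the same sign in all 3 lines. Of all genes tested, 72.2% were called by day in WT. Pairs of unrelated genes were not counted, so whether these counts are particular to sense and antisense partners was not tested. The pseudocount of 1 shrinks the changes of low genes most. As ratios of WT means with no pseudocount, a comparison chosen after seeing the data and not tested, 180 of the 183 differences kept their sign, and ADD3-AS1, LMO7-AS1 and RGMB-AS1 did not. Both genes of a pair share their libraries, and some share bases, so the relation of their changes is given as a description: over the 318 pairs in WT Pearson's r was 0.52 and Spearman's rho 0.38.

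**Figure D3:**
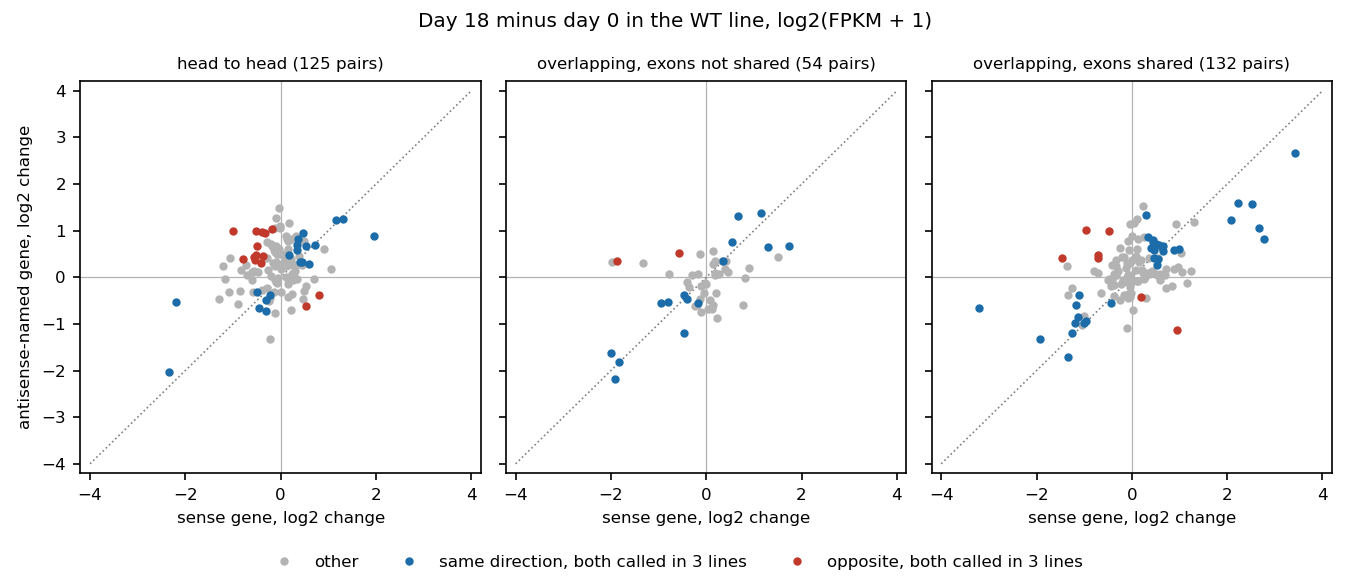
Points are pairs, with the log2 change of the sense gene on the horizontal and of the antisense-named gene on the vertical axis, both day 18 minus day 0 in WT on log2(FPKM + 1), split by arrangement. The dotted line marks equal change. Blue pairs were called in one direction and red pairs in opposite directions in all 3 lines. Most red points lie in the upper left of the head to head panel.

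The pairs were also described by arrangement. Head to head pairs (125 tested) had a Pearson's r of 0.35 and a Spearman's rho of 0.22, with 20 pairs moving together and 14 apart in all 3 lines. Pairs with shared exonic bases (132) had 0.60 and 0.49, with 33 together and 7 apart, and overlapping pairs without shared exonic bases (54) had 0.55 and 0.48, with 15 together and 2 apart. By exonic bases shared with the sense gene, Pearson's r was 0.38 at 0%, 0.56 below 10% and 0.60 at 10% or more. Shared bases, in exons or in introns, can carry reads of one gene into the other, and their part in these values was not tested. Among the 125 head to head antisense genes 50 rose and 12 fell in all 3 lines, with a median WT change of 0.29. Their sense genes had 34 rises and 39 falls and a median of -0.06. Over all members 33.3% rose and 13.2% fell, and over all genes tested 33.3% and 29.7%. No difference between arrangements was tested.

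The 4 pairs with the largest change in one direction were CADM3, IGFBP7, GRM7 and CHRM3. CADM3 went from 3.01 to 4.01 FPKM on day 0 to 41.2 to 51.6 on day 18, a WT change of 3.42, so that CADM3-AS1 (2.67) rose less by 0.75 ± 0.09 on that scale (limma on the difference, adjusted p = 1.28e-06). As ratios of WT means the rises were 10.9-fold for CADM3-AS1 and 13.5-fold for CADM3, a log2 difference of -0.32. CHRM3 rose by 2.52 and CHRM3-AS2 by 1.56, again with a called difference (-0.95 ± 0.14, limma, adjusted p = 1.55e-05), against 6.95-fold and 5.12-fold as ratios. GRM7 fell from 7.04 to 9.51 FPKM to 1.24 to 1.77, and the difference from GRM7-AS2 was -0.26 (95% interval -0.66 to 0.13; limma, adjusted p = 0.217). IGFBP7 fell from 6.49 to 10.4 FPKM to 0.430 to 1.22, with a difference of 0.32 from IGFBP7-AS1 (limma, adjusted p = 0.148), while as ratios of WT means IGFBP7-AS1 was 17.2 times and IGFBP7 10.0 times lower. PRKCA-AS1 and PRKCA both fell by 1.82 in WT on the log2(FPKM + 1) scale, which is 5.87 times and 3.64 times less as ratios of WT means.

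Among pairs that moved apart, GATA2 and its antisense gene differed most. GATA2, a transcription factor of sympathetic and blood lineages, fell from 95.9 to 105 FPKM (median 98.8) on day 0 to 21.9 to 28.3 (median 25.9) on day 18. GATA2-AS1 rose from 6.76 to 8.13 FPKM (median 7.47) to 8.29 to 11.0 (median 9.70), a WT change of 0.34 ± 0.08 (limma, adjusted p = 0.000881) against -1.88 for GATA2. With small RNA genes left out and the former totals restored its WT change was -0.09, beside -0.42 for the median of all genes tested. The days did not overlap for either gene, and the 2 genes share no exonic base. The difference of the changes was 2.22 ± 0.10 (limma, adjusted p = 1.87e-12).

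VPS9D1-AS1 was the reverse case. It fell from 6.30 to 8.30 FPKM (median 6.76) to 2.01 to 3.51 (median 2.38) while VPS9D1 rose from 1.12 to 1.60 to 2.56 to 3.99, a difference of -2.06 ± 0.11 (limma, adjusted p = 2.23e-11). VPS9D1-AS1 shares 29.5% of its exonic bases with VPS9D1, and the part of reads from these bases in both values was not tested.

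The next pairs lay at ribosome assembly factors. URB1, a protein of large-subunit assembly, went from 13.9 to 15.2 FPKM to 6.14 to 6.87, and URB1-AS1 from 6.15 to 10.1 (median 7.34) to 13.3 to 17.1 (median 15.9), with WT changes of -1.01 and 0.99. NOP14, a protein of the small-subunit processome, went from 14.8 to 16.7 to 6.60 to 8.53, and NOP14-AS1 from 3.02 to 4.08 to 7.20 to 8.46, with changes of -0.97 and 1.01. The differences were 1.99 ± 0.14 and 1.98 ± 0.10 (limma, adjusted p = 7.71e-10 and 1.76e-11). NIFK-AS1 (0.48) and EIF3J-AS1 (1.03), antisense to a nucleolar protein and a translation initiation factor gene, also rose in WT as NIFK (-0.71) and EIF3J (-0.18) fell. These last 2 were named after their values were seen.

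PTPRG-AS1 and DPH6-AS1 completed the 6 widest opposite pairs. PTPRG, a receptor tyrosine phosphatase, fell from 5.24 to 6.58 FPKM to 1.21 to 1.72. PTPRG-AS1 went from 1.42 to 2.09 to 1.89 to 3.51, where the days overlapped in one day 18 WT library, and rose by 0.40 in WT (limma, adjusted p = 0.00636), 0.55 in C14R and 0.77 in deletion. Without WT replicate 3 of day 18 its WT change was 0.27 (limma, adjusted p = 0.0502). DPH6-AS1 rose by 0.99 in WT, from 1.47 to 2.17 FPKM to 3.19 to 7.32, while DPH6, an enzyme of diphthamide synthesis, fell by 0.51.

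**Figure D4:**
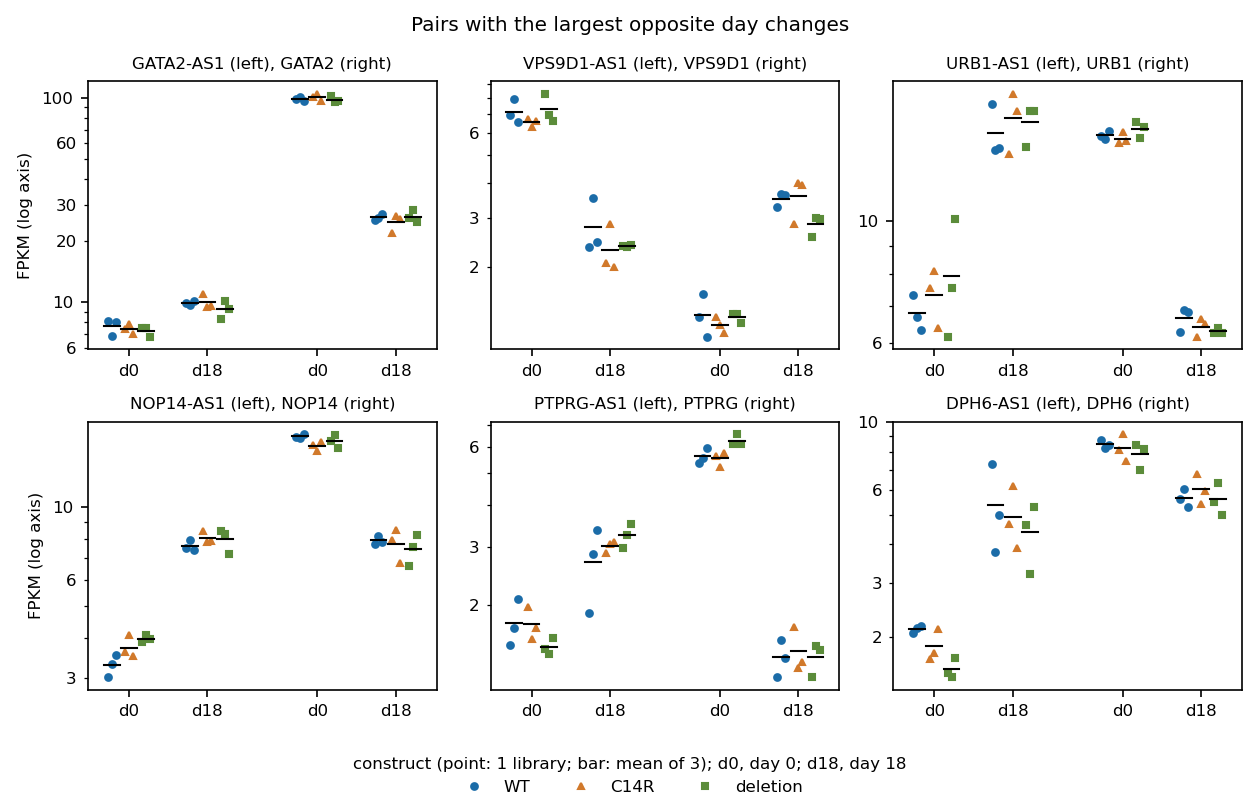
Each panel plots FPKM on a log axis for an antisense-named gene (left) and its sense gene (right) in 9 libraries of day 0 and 9 of day 18, coloured by construct, with the mean of each group of 3 as a bar. In 5 of the 6 pairs the antisense gene is higher and the sense gene lower on day 18, and in VPS9D1 the directions are exchanged.

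Members with a shared start window gave all patterns of movement. Of the 54 with both genes tested, 22 antisense genes rose and 5 fell in all 3 lines, against 21 and 15 of the sense genes. The shares over all members were 33.3% and 13.2%, and over all genes tested 33.3% and 29.7%. A total of 12 pairs moved together and 6 apart, and in 9 the antisense gene rose while the sense gene was not called in all 3 lines. Of the 5 whose windows are printed, URB1-AS1 and RTCA-AS1 are described above and the other 3 were named after their values were seen. TPT1-AS1 rose from 1.35 to 2.79 FPKM to 3.65 to 6.81 (WT change 0.96), while TPT1, an abundant tumour protein that is translationally controlled, fell from 237 to 262 to 187 to 224 (-0.39). SAP30L-AS1 fell from 1.64 to 2.31 to 0.636 to 1.20 (-0.60), while SAP30L, a subunit of a histone deacetylase complex, rose from 7.91 to 9.14 to 12.0 to 12.8 (0.53). ID2, an inhibitor of basic helix-loop-helix factors that keeps precursors undifferentiated, fell from 72.5 to 103 FPKM to 5.50 to 9.03 (-3.20), and ID2-AS1 from 2.53 to 4.05 to 0.758 to 2.75 (-0.65), a smaller fall by 2.55 ± 0.27 (limma, adjusted p = 1.79e-07). The ID2-AS1 days overlapped, and its WT fall was 0.50 (limma, adjusted p = 0.0528) without WT replicate 3 of day 0.

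As levels, the antisense gene lay below its sense gene in all 18 libraries in 252 of 318 pairs and above it in all 18 in 29. In 6 pairs the order of the levels was exchanged in every library between the days. URB1-AS1, PTPRG-AS1, TRAM2-AS1, ROR1-AS1 and KIF9-AS1 were below their sense genes in 9 of 9 libraries on day 0 and above them in 9 of 9 on day 18. TRAM2-AS1 rose from 4.16 to 5.71 FPKM to 6.43 to 7.73 and ROR1-AS1 from 7.23 to 9.76 to 9.79 to 12.4, each past a sense gene that fell by 0.51 and 0.56 in WT. ROR1 is a receptor for Wnt ligands. KIF9-AS1 rose from 0.637 to 1.35 to 1.80 to 2.85, with KIF9 not called in WT. VPS9D1-AS1 went the other way, above VPS9D1 in 9 of 9 libraries on day 0 and below it in 9 of 9 on day 18.

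For 13 sense genes 2 members each were measured. In 8 of these 1 of the 2 was called in all 3 lines, in 4 neither was, and at GAS6, the gene of a secreted ligand of the TAM receptor kinases, both were. GAS6-AS1 fell from 1.09 to 2.47 FPKM (median 1.86) to 0.0858 to 0.965 (median 0.401), a WT change of -1.08 ± 0.19 (limma, adjusted p = 7.29e-05). GAS6-AS2, head to head with GAS6, rose from 0.669 to 1.28 (median 0.768) to 3.47 to 4.57 (median 3.77), by 1.27 ± 0.11 (limma, adjusted p = 7.70e-09). GAS6 had -0.10 and was not called. At ADAMTS9, ADAMTS9-AS1 fell by 1.71 with the metalloprotease gene (-1.33), while ADAMTS9-AS2 had a WT change of 0.31 (limma, adjusted p = 0.0430) whose call ended in 5 of 18 fits without 1 library, with adjusted p between 0.0505 (without WT replicate 3 of day 0) and 0.166 (without WT replicate 1 of day 0). The other 3 were WT replicates 2 (0.0896) and 3 (0.154) of day 18 and deletion replicate 3 of day 0 (0.0510). At FGF14, FGF14-AS2 fell from 21.5 to 30.9 FPKM to 13.7 to 16.1 (-0.60) while FGF14, a regulator of neuronal sodium channels, had 0.13 in WT and was not called there. The GAS6 pair, ADAMTS9-AS2 and FGF14-AS2 were named after their values were seen.

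Grouped by the role of the sense gene, 5 of 18 antisense genes of developmental transcription factors were higher (27.8%, background 33.3%) and 6 lower (33.3%, background 29.7%) in all 3 lines. Their sense genes had 8 higher and 7 lower of 16. NR2F1-AS1 rose from 3.79 to 5.67 FPKM to 9.98 to 12.4 (WT change 1.07) and NR2F1, a nuclear receptor of neural patterning, by 2.66. MEIS1-AS3 rose from 0.272 to 0.659 to 1.74 to 2.63 (1.24), next to the homeobox gene MEIS1 (1.30). As ratios of WT means these are 5.28-fold and 2.54-fold. SIX3-AS1 fell from 4.86 to 8.51 to 2.35 to 5.37 (-0.54), less than the forebrain homeobox gene SIX3 (-2.19). DLX6-AS1 fell from 2.97 to 4.12 to 1.47 to 2.17 (-0.54) with DLX6 (-0.95). MYT1L-AS1 fell by 0.43 as MYT1L, a neuronal zinc-finger factor, rose by 0.19.

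For neuronal and synaptic genes, 6 of 14 antisense genes were higher (42.9%) and 4 lower (28.6%), beside 6 and 4 of 13 sense genes. The 4 lower ones include GRM7-AS2, which led the largest falls, and FGF14-AS2, both described above. Those described next all rose. DBH-AS1 rose from 2.01 to 3.38 FPKM to 3.35 to 6.28 (0.83) next to DBH, the enzyme that makes noradrenaline, which rose by 2.78 from 56.2 to 69.2 to 288 to 476. SNAP25-AS1 rose from 0.522 to 1.03 to 1.36 to 2.14 (0.66) and SNAP25, a protein of synaptic vesicle fusion, by 1.73. STXBP5-AS1 rose from 0.0902 to 0.375 to 1.75 to 2.43 (1.16), while STXBP5, which binds syntaxin, changed by 0.17. On log2(FPKM + 1), in SNAP25, DBH and CADM3 the sense gene changed more than the antisense gene, and in STXBP5 less, each by the test of the difference in WT.

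In the cell cycle and replication list, 8 of 14 sense genes were lower on day 18 and 2 higher. Of their antisense genes 3 of 14 were lower (21.4%) and 2 higher (14.3%). This list also holds sense genes with other main roles, among them CCNT2, CDC37L1, MCM3AP and KIF9. The difference between these counts was not tested. PRC1-AS1 fell from 1.97 to 3.32 FPKM to 0.868 to 1.70 (-0.86) with PRC1, a spindle midzone protein (-1.13). TMPO-AS1 fell by 0.47 in WT and TMPO, a nuclear lamina protein, by 1.29.

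Antisense genes of the RNA processing and translation list had 7 rises (38.9%) and 0 falls among 18, beside 8 and 6 for their sense genes. Those of the mitochondria and metabolism list had 7 rises (46.7%) and 1 fall (6.67%) among 15, beside 2 and 5 of 14. Over all members the shares were 33.3% and 13.2%, and no difference of a list from them was tested. The lists are loose, and their rises include antisense genes of sense genes with other roles. Examples are THAP7 and THAP9 in the first list and ATP2A1 and ATP6V0E2 in the second. NNT-AS1, head to head with the mitochondrial transhydrogenase gene NNT, rose from 8.16 to 9.66 FPKM to 12.3 to 15.1 (0.53), while NNT changed by -0.12. CBR3-AS1, beside a carbonyl reductase gene, rose from 0.437 to 1.31 to 1.97 to 3.56 (1.18), and ATP2A1-AS1 from 3.27 to 6.64 to 7.30 to 12.9 (0.97). For ubiquitin and protein turnover the counts were 7 higher and 3 lower of 18, for chromatin and transcription 9 and 3 of 30, for signalling and GTPases 9 and 3 of 30, and for membrane traffic and cytoskeleton 5 and 2 of 18. ZBED5-AS1, of the chromatin and transcription list, rose by 1.10 in WT with ZBED5 at -0.02. The 169 members outside these lists had 57 higher and 20 lower. Over all genes tested the counts were 4588 higher and 4094 lower of 13785, which is the background of 33.3% and 29.7%.

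A further list held 19 antisense RNAs with described functions, of which 6 were higher (31.6%, background 33.3%) and 4 lower (21.1%, background 29.7%) in all 3 lines. OIP5-AS1 had 28.8 to 33.2 FPKM (median 30.8) on day 0 and 17.3 to 21.5 (median 20.5) on day 18 without overlap, a fall of 0.58 ± 0.04 in WT (limma, adjusted p = 6.92e-10), and OIP5, a centromere protein, fell by 1.18. PSMA3-AS1 went from 24.3 to 30.4 FPKM to 17.1 to 23.5 (-0.46) and the proteasome subunit PSMA3 by -0.41. ZEB1-AS1 rose from 3.24 to 5.42 to 8.30 to 9.62 (0.87), more than ZEB1, a regulator of epithelial to mesenchymal transition (0.35). MAP3K14-AS1 rose from 2.11 to 3.97 to 6.43 to 9.05 (1.25) while the kinase gene MAP3K14 was not called in WT (0.12).

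Calls of HIF1A-AS2 and MEIS1-AS2 were not made in every line. HIF1A-AS2 rose by 0.36 in WT (limma, adjusted p = 4.91e-05) and had changes of 0.10 and 0.06 in C14R and deletion (limma, adjusted p = 0.153 and 0.407). MEIS1-AS2 had 1.19, 0.40 and 0.58, the C14R value not called. The interaction of construct and day passed the test for neither. MCM3AP-AS1 (0.08) and KDM4A-AS1 (-0.41) were not called in WT, but KDM4A-AS1 was without WT replicate 2 of day 18 (-0.53; limma, adjusted p = 0.0453). GABPB1-AS1 fell by 0.23 in WT, a call that ended without WT replicate 3 of day 0 (-0.19; limma, adjusted p = 0.0700) or WT replicate 1 of day 18 (-0.17; 0.0969). HOXD-AS2 fell by 0.56, a call that ended without WT replicate 1 of day 0 (-0.34; limma, adjusted p = 0.138) or WT replicate 3 of day 18 (-0.40; 0.112). GATA3-AS1 fell in all 3 lines, by 0.38 in WT with GATA3 (-0.47), from 15.5 to 18.9 FPKM to 10.5 to 15.6, with the days overlapping.

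**Figure D5:**
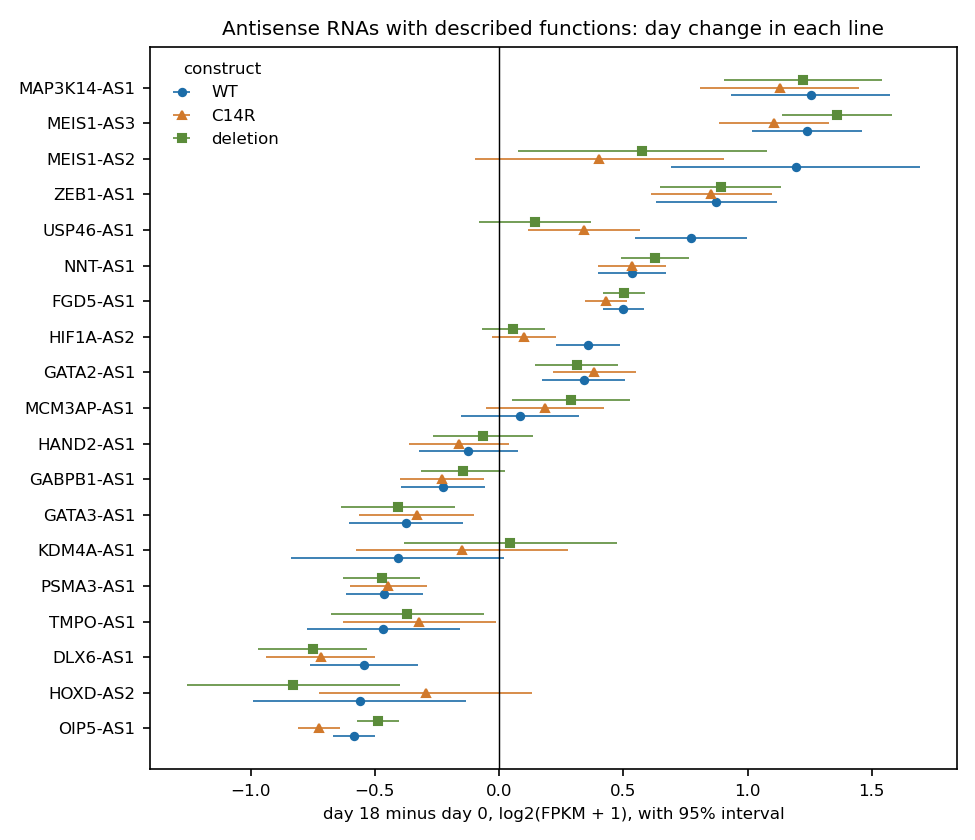
Points give the day 18 minus day 0 change on log2(FPKM + 1) of 19 antisense RNAs with described functions in each line, with the 95% interval of the limma fit. MAP3K14-AS1 (1.25), MEIS1-AS3 (1.24) and MEIS1-AS2 (1.19) lie furthest right and OIP5-AS1 (-0.58) furthest left in WT.

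Between constructs on the same day, 2 antisense-named genes passed the test. C14R against WT gave 0 calls on day 0 (limma; 0% of all genes tested) and 0 on day 18 (0.0363% of all genes). An unadjusted p under 0.05 in limma was reached by 19 members on day 0 (5.56%, all genes 2.81%) and 30 on day 18 (8.77%, all genes 11.1%). The smallest adjusted p in limma was 0.564 for FGF14-AS1 on day 0 and 0.104 for OIP5-AS1 on day 18. Deletion against WT gave 0 calls on day 0 (0.029% of all genes; smallest adjusted p 0.725 in limma, EPN2-AS1) and 2 on day 18 (0.0725% of all genes). Unadjusted, 26 members reached 0.05 on day 0 (7.60%, all genes 6.22%) and 29 on day 18 (8.48%, all genes 11.4%). The day change differed between C14R and WT for 0 members (0% of all genes; smallest adjusted p 0.409 in limma, THOC7-AS1). Between deletion and WT it differed for 0 (0.0145% of all genes; smallest adjusted p 0.305 in limma, EPN2-AS1). Unadjusted, the counts were 28 members for C14R (8.19%, all genes 5.73%) and 27 for deletion (7.89%, all genes 7.36%).

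One of these calls was in USP46-AS1. This gene, head to head with the deubiquitinase gene USP46, had 5.02, 5.22 and 5.91 FPKM in WT, 4.60, 4.64 and 4.42 in C14R and 3.72, 3.14 and 2.80 in deletion, and the 3 constructs did not overlap. Its change in deletion was -0.60 ± 0.11 (limma, adjusted p = 0.0468), with USP46 at 0.04. On day 0 the same gene had 3.35, 2.14 and 2.82 FPKM in WT and 2.75, 2.83 and 2.83 in deletion. The call stood near the threshold: leaving out 1 of the 18 libraries ended it in 16 fits (adjusted p 0.0518 to 0.218), while the change stayed between -0.68 and -0.53.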

How the data were processed

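The authors deposited one table of FPKM values (fragments scaled to transcript length and to mapped fragments), with a row per gene symbol and a column per library. Per the submitters' processing notes, TopHat2, STAR, Cufflinks 2.2.1 and hg38 were used, with no role or order stated. TRIzol extraction, DNase I treatment, Ribo-Zero depletion and the NEBNext Ultra kit gave the libraries, per the labels' protocols. The annotation and strand setting of the counting are not given in the sources used here. Absolute depth is unknown, so no counting interval is given.

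Column names were the sample titles, which gave construct, day and replicate, and 0 value columns lacked a sample. The 13785 genes with a mean of at least 1 FPKM were tested together on log2(FPKM + 1), a pseudocount of 1, with limma 3.58.1 in R 4.3.3 (6 group means, empirical Bayes with a mean-variance trend, Benjamini-Hochberg adjustment over all genes, threshold 0.05). A fold change on this scale understates changes of low genes. The difference between an antisense gene and its sense gene (the symbol before the hyphen, 1 by an older symbol) was fitted as an added row per pair and adjusted with all genes. The procedure was tested on simulated data. Of 342 members, 318 had a tested sense gene, 21 had one below 1 FPKM and 3 had none in the table.

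Members named individually were those called between constructs, the 8 largest rises and 8 largest falls in WT among members called in all 3 lines, the 6 largest opposite and 4 largest same-direction pairs, the 5 highest, the 3 nearest the threshold on each side, and a list of studied antisense RNAs; all others named were chosen after their values were seen. Of the genes this rule selected, 1 is left out of the text. The members, the gene lists and the rule were chosen with earlier results of these data known. Positions came from GENCODE release 29 and sequences from RefSeq, both on GRCh38.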

Additional observations from a re-analysis of the deposited data

How the results depend on the processing

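The counts were recomputed with quantile or median-of-ratios scaling, without small RNA genes under 2 kinds of rescaling (the common total added after seeing the data), without a filter or with one at a mean of 5 FPKM, with a pseudocount of 0.1, a replicate block, array weights or no variance trend, with only the libraries compared, a log2 change of at least 1, and each library left out in turn. Counts by day moved over 1.5 times in 3 of these. Above the filter at 5 FPKM, WT had 78 members called, C14R 77 and deletion 77, opposite pairs 16 and pairs with a called difference 57; fewer members are tested there. With a log2 change of at least 1 these counts were 42, 42 and 40, with 0 opposite pairs and 48 differences. With small RNA genes left out and former totals restored, WT had 76 and deletion 66, with 0 opposite pairs and 77 differences, and ADAMTS9-AS2 (-0.0814), GATA2-AS1 (-0.0905) and HIF1A-AS2 (-0.11) reversed in WT; all 67 members named for a day change kept their sign relative to the median gene. That scaling also gave 2 calls for C14R and 1 for deletion against WT on day 0, and 1 for each interaction with day. Calls for deletion against WT on day 18 came to 0 without a filter, at 5 FPKM, under that scaling, with only the libraries compared and with a log2 change of at least 1. Array weights gave 5 calls for C14R against WT on day 18.

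Replicate numbers did not pair the libraries: residuals of libraries with the same number correlated at -0.36 to 0.17 (median -0.01). The replicate block gave 208, 201 and 202 calls by day in WT, C14R and deletion, 41 opposite pairs, 184 differences, and 1 call for deletion against WT on day 18.

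Without 1 library, calls by day ranged from 189 to 212 in WT, 187 to 205 in C14R and 184 to 204 in deletion, opposite pairs from 30 to 41 and differences from 167 to 191. Calls ranged from 0 to 1 for C14R and 0 to 3 for deletion against WT on day 18, and were 0 in every such fit for day 0 and for both interactions. Unknown depth limits the low members, where a few fragments make a value.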
